A study of Mus musculus with 18 samples.

Results

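The readers of H3K36 methylation described here are 9 mouse genes, Dnmt3a, Dnmt3b, Psip1, Morf4l1, Brpf1, Zmynd11, Mtf2, Phf19 and Phf1, chosen by symbol from the 21938 protein-coding genes of GENCODE M21 on the assembled chromosomes of GRCm38. They were followed in splenic B cells, purified by negative selection, of Mir155-sufficient (WT) and Mir155-deficient (KO) mice. In both genotypes the cells had been cultured for 2 days in 1% oxygen and 5% CO2 with anti-CD40 (1 µg/ml), a F(ab')2 fragment of anti-IgM (5 µg/ml) and interleukin 4 (4 ng/ml), fixed with the crosslinker EGS and formaldehyde, and used for ChIP-seq against KDM2A (13.5 µg of chromatin) or dimethylated lysine 36 of histone H3, H3K36me2 (1 µg). Each genotype had 3 libraries per antibody, of which replicate 1 came from a male and replicates 2 and 3 from females, and 1 peak list per library, 12 lists in all, was used. The labels give no age for any library, the study's methods give only a range for its mice, and the labels do not say whether replicates 2 and 3 were separate animals, so the p-values below measure the spread between these libraries, which may be technical.

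The 9 proteins bind a methylated lysine 36 of histone H3 through a PWWP domain (DNMT3A, DNMT3B, PSIP1, BRPF1, ZMYND11), a chromodomain (MORF4L1) or a Tudor domain (MTF2, PHF19, PHF1), and pass the mark on to DNA methylation, histone acetylation, transcript elongation and splicing, or Polycomb silencing. KDM2A removes methyl groups from mono- and dimethylated lysine 36 and is held at CpG islands by a CXXC zinc finger that binds unmethylated CpG. The lists thus report where KDM2A and the dimethylated form of lysine 36 lay on the genes that encode these readers. Other methylated forms of lysine 36, which the readers may bind, are not in the lists. The lists measure chromatin at these genes and give neither their expression nor the binding of their proteins.

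The 9 genes differed in size and in the number of annotated transcription start sites (TSS), which sets how far a local peak can fill their windows. Dnmt3a (chr12:3806007-3914443, plus strand) was the longest of them at 108.4 kb, with 18 TSS, and Phf1 (chr17:26933052-26937908, plus strand) the shortest at 4.9 kb, with 7 TSS. Between them lay Zmynd11 (chr13:9684833-9765330, minus strand, 80.5 kb, 26 TSS), Mtf2 (chr5:108065674-108109004, plus strand, 43.3 kb, 12 TSS), Dnmt3b (chr2:153649450-153687730, plus strand, 38.3 kb, 6 TSS), Psip1 (chr4:83455680-83486459, minus strand, 30.8 kb, 7 TSS), Morf4l1 (chr9:90091665-90114774, minus strand, 23.1 kb, 12 TSS), Phf19 (chr2:34893757-34914026, minus strand, 20.3 kb, 5 TSS) and Brpf1 (chr6:113307137-113324860, plus strand, 17.7 kb, 9 TSS). The windows of 2 kb on either side of every TSS, merged where they met, covered 37.7 kb at Dnmt3a and 4.4 kb at Phf1. Only the windows of Psip1 held a TSS of another protein-coding gene, that of Snapc3.

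Promoter sequence is shown first, because KDM2A is held at CpG islands, as described above. The RefSeq promoter table of GRCm38.p6 (250 bases before to 50 after a start) held 14 promoters of 8 of the 9 genes, all but Psip1. In the 7 stretches below, read 5′ to 3′ on the strand of the gene, capitals mark each CpG, that is each CG. The Brpf1 and Phf19 promoters and the first Dnmt3a promoter lay under KDM2A peaks in all 6 lists. The Dnmt3b stretch is not a promoter of that table but the 177 bases that all 6 KDM2A lists shared. The first Mtf2 promoter was under a KDM2A peak in 3 lists, the internal Dnmt3a promoter in 1 and the internal Mtf2 promoter in 0.
Brpf1, chr6:113306887-113307186: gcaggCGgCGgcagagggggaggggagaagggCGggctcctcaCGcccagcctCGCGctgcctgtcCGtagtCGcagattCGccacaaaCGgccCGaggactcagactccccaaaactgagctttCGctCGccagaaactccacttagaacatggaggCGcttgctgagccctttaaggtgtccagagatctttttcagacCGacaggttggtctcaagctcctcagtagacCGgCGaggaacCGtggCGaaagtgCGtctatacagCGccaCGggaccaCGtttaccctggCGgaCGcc
Phf19, chr2:34913927-34914226: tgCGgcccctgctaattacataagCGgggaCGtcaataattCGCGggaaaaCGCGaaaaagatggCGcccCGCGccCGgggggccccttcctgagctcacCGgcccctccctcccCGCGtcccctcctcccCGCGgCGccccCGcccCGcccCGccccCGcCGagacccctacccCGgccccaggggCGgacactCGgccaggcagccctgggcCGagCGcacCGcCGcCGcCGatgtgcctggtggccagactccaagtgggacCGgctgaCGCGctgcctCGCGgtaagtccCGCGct
Dnmt3a, first promoter, chr12:3806730-3807029: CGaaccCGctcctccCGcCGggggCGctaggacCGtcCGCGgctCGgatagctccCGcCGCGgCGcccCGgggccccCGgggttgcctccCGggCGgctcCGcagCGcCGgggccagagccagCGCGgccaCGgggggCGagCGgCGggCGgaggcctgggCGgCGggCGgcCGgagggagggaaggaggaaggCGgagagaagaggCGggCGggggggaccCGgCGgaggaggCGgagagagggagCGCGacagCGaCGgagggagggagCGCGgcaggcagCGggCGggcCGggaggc
Dnmt3b, shared KDM2A bases, chr2:153649658-153649834: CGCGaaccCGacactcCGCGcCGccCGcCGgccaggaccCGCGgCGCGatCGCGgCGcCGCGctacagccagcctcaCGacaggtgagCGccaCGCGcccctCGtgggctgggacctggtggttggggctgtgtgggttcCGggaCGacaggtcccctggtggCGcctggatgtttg
Mtf2, first promoter, chr5:108065424-108065723: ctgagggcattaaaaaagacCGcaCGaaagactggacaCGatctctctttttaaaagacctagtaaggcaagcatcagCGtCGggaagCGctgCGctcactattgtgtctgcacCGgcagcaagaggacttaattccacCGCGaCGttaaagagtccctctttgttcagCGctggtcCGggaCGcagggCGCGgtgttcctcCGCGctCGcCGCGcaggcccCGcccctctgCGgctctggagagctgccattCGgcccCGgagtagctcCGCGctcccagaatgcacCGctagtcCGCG
Dnmt3a, internal promoter, chr12:3891494-3891793: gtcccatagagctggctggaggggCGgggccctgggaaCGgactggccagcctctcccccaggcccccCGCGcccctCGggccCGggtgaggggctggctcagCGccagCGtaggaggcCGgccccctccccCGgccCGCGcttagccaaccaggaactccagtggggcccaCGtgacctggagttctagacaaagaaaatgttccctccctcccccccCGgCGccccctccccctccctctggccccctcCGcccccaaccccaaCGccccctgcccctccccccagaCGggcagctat
Mtf2, internal promoter, chr5:108077915-108078214: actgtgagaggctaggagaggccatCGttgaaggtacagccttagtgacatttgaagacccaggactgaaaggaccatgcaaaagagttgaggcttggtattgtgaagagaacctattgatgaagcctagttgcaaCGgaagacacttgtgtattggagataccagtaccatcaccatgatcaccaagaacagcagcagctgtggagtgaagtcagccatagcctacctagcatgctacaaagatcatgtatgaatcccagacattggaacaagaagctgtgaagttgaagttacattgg

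The first Dnmt3a promoter held 46 CpG in 300 bases, a number reached by 1.65% of the 32851 promoters in the table, whose median was 7. Phf19 held 38 CpG and Brpf1 25. The first Mtf2 promoter, with 30 CpG, was as rich as the Dnmt3b promoter of the table, which also held 30 and touched a KDM2A peak in 4 of 6 lists. CpG number alone therefore did not order the members by how many lists called them. The Morf4l1 promoter held only 13 CpG and was under a KDM2A peak in all 6 lists, as was the Phf1 promoter with 24, whereas the 4 Zmynd11 promoters, with 31, 48, 41 and 9, were under one in 5, 4, 4 and 3 lists. Over all promoters of that length, 94.6% held at least 1 CpG, and the median was 27 CpG in the 13.3% that met a KDM2A peak in all 6 lists.

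The libraries were unequal, and this bears on each coverage value given here. The lists give no read counts, and depth is unknown. H3K36me2 peaks covered 4.17%, 5.32% and 5.25% of the genome in WT replicates 1 to 3 but 3.63%, 1.59% and 1.44% in KO replicates 1 to 3, so KO replicates 2 and 3 stood apart from the other 4. KDM2A peaks covered 1.11%, 0.770% and 0.876% in WT and 0.492%, 0.433% and 0.715% in KO. How far depth or the yield of a precipitation set these shares was not tested. For KDM2A, 6 of 9 B cell marker genes had a promoter peak in all 6 lists, against 0 of 6 T cell, 0 of 4 myeloid and 1 of 4 plasma cell markers. In H3K36me2, mean gene-body coverage of the T cell list ranged from 10.5% to 12.7% in WT and from 0% to 11.4% in KO, of the myeloid list from 22.7% to 25.8% and from 7.13% to 20.2%, of the plasma cell list from 17.5% to 24.0% and from 1.48% to 11.4%, and of the B cell list from 5.53% to 6.95% and from 0.258% to 5.85%. Bcl11b and Cd8a of the T cell list, Xbp1 of the plasma cell list and Cd74 of the B cell list were at 0 in every H3K36me2 list. The part of other cell types in the results below was not tested.

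KDM2A occupied the start of nearly every reader gene. A KDM2A peak lay in the TSS windows of 8 of the 9 genes in all 6 lists, the exception being Mtf2 with 4 of 6, and the same held for 26.4% of all protein-coding genes. Merging the peaks of the 6 lists over the 9 genes gave 40 KDM2A intervals, of which 9 were present in all 6 lists, and each of these 9 overlapped an annotated TSS of its gene. Of the other 31 intervals 2 overlapped a TSS, and 22 of them came from a single list. The 9 recurrent intervals held from 16.5 to 109 CpG per kb, with a median of 73.4, and the other 31 had a median of 14.3. The shortest was 1015 bp wide, at Dnmt3b, while the interval at Phf1 ran for 9459 bp and also reached Cuta and Kifc5b, so that its signal cannot be assigned to Phf1 alone.

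**Figure D1:**
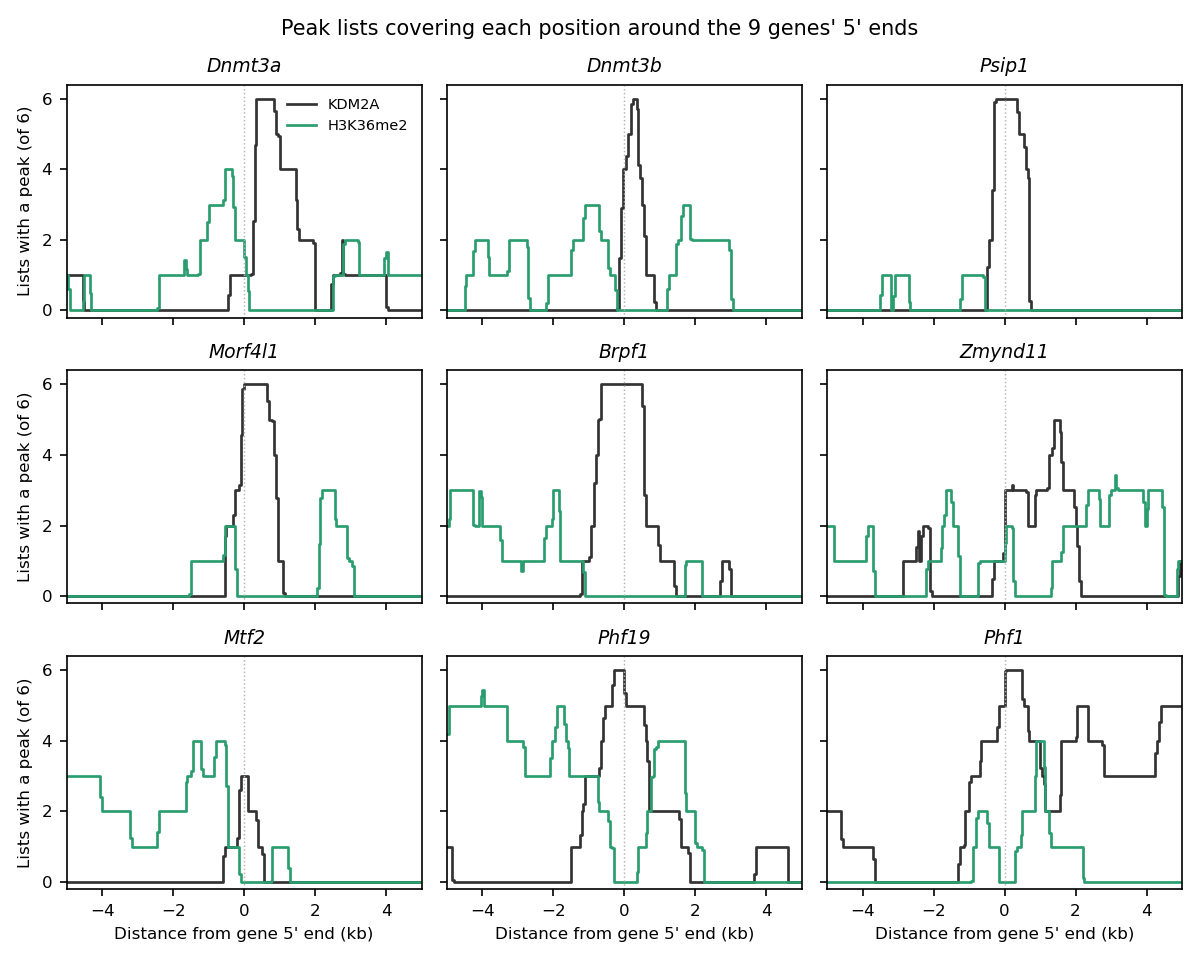
Number of peak lists (of 6 per antibody, WT and KO together) that cover each position from 5 kb upstream to 5 kb downstream of the annotated 5′ end of each gene, averaged in 50 bp steps, with positive distances running into the gene. The black KDM2A line reaches 6 lists near the 5′ end in 7 genes, 5 at Zmynd11 and 3 at Mtf2, and the green H3K36me2 line reaches at most 1 list at Psip1 and 3 at Dnmt3b, Morf4l1 and Brpf1.

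The bases under a KDM2A peak in all 6 lists were counted next, a stricter measure that depends on where each single peak starts and ends. Brpf1, a scaffold of MOZ and MORF acetyltransferase complexes, had the longest such stretch of the 9 genes, 1185 bp at chr6:113306486-113307670 with 105 CpG. Morf4l1, a subunit of acetyltransferase and deacetylase complexes, had 720 bp, Psip1, a coactivator that tethers other proteins to chromatin, 676 bp, the de novo DNA methyltransferase gene Dnmt3a 546 bp with 69 CpG, and Phf1, a Polycomb accessory factor, 508 bp. Phf19, another Polycomb accessory factor, had a stretch of 347 bp at its 5′ end, most of it upstream of the gene, and one of 455 bp centred in an intron. Zmynd11, a repressor of elongation, and Mtf2, a Polycomb recruiter, had none. At Zmynd11 the peaks of the 6 lists met the same interval of 2446 bp without sharing a base.

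H3K36me2 peaks were nearly absent from these shared KDM2A bases. No list of H3K36me2 covered more than 5.32% of the genome, and such shared bases of other genes were not counted. At Dnmt3a, Dnmt3b, Psip1, Morf4l1 and Brpf1, 0 bases of the stretch lay under an H3K36me2 peak in any of the 6 H3K36me2 lists. At Phf19 the 455 bp internal stretch lay wholly under a peak in WT replicate 3 and the 347 bp stretch shared 27 bp with that list. At Phf1, 203 bp were under a peak in WT replicate 3 and 26 bp in KO replicate 2. At Dnmt3b, H3K36me2 peaks lay on either side, at chr2:153647289-153649228, upstream of the gene, and at chr2:153650669-153652465 in an intron. The KDM2A interval chr2:153649297-153650311 lay between them. Psip1 had only 1 H3K36me2 peak, upstream, in KO replicate 1. Across the 9 genes and their windows, the share of KDM2A bases that were also under H3K36me2 peaks of the same genotype and number came to 18.8%, 25.5% and 14.6% in the WT pairs and to 11.9%, 6.88% and 2.82% in the KO pairs. Over all KDM2A peaks the same shares were 21.7%, 19.6% and 20.8% in WT and 12.8%, 3.54% and 4.32% in KO, so the groups did not overlap in either. However, every KO list of H3K36me2 covered less of the genome than every WT list, and these shares were not scaled for it. How far the size of the lists set them was not tested.

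The first comparison asked whether the height of KDM2A peaks at the TSS differed without Mir155. The measure was the highest fold of a peak over its local background in the windows of a gene. In the limma fit over the 5786 protein-coding genes with a peak in all 6 lists, 8 of the 9 readers could be tested and none was called at an adjusted p of 0.05, as was the case for all genes (0 called, 0%, with 299 at an unadjusted p under that value). Before adjustment, 2 readers had every KO library above every WT library and 0 had every KO library below, against 5.2% and 5.17% of all genes tested. Of those genes 50.7% were higher and 49.3% lower in KO, and 31.3% and 68.7% where the libraries were not centred, which moved the median of all genes by −0.06 (log2).

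Dnmt3a had folds of 2.59, 3.32 and 3.50 in WT and 3.05, 2.64 and 3.36 in KO. Dnmt3b, the other de novo methyltransferase, had 3.01, 3.17 and 2.87 in WT and 3.40, 2.91 and 2.48 in KO. In both genes the genotypes overlapped, and the fitted differences were 0.01 ± 0.12 (SE) and 0.01 ± 0.12 on the log2 scale.

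Morf4l1 had folds of 2.68, 2.95 and 2.69 in WT and 3.19, 2.98 and 3.18 in KO, so that the 3 KO libraries were the 3 highest. Its difference was 0.23 ± 0.094 (SE, log2), with an unadjusted limma p of 0.0244 and an adjusted p of 0.914. Brpf1 carried the tallest peaks of the 9 genes in both genotypes apart from single libraries of Mtf2 and Phf1. Its folds were 3.67, 3.68 and 3.53 in WT and 3.84, 3.8 and 3.71 in KO, again with all KO libraries on top, and the difference of 0.12 ± 0.12 (SE, log2) had a limma adjusted p of 0.949. Psip1 (2.75, 3.45 and 2.66 in WT, 3.02, 2.98 and 3.19 in KO) and Zmynd11 (2.7, 3.13 and 2.63 in WT, 2.88, 2.74 and 2.93 in KO) overlapped between genotypes.

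Among the Polycomb accessory genes, Phf19 had folds of 3.41, 2.82 and 3.26 in WT and 2.88, 3.00 and 2.89 in KO. Phf1 had 2.83, 4.94 and 3.42 in WT and 2.38, 2.99 and 3.20 in KO, and 1 WT library set most of its difference of −0.30 ± 0.16 (SE, log2; limma adjusted p = 0.914). Mtf2 had no peak in WT replicate 1 or KO replicate 3 and so was not tested, and it had folds of 3.44, 2.85, 2.58 and 5.81 in WT replicates 2 and 3 and KO replicates 1 and 2. The value of KO replicate 2 was the highest fold among the 9 genes, and that of KO replicate 1 came from a peak near an internal TSS.

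**Figure D2:**
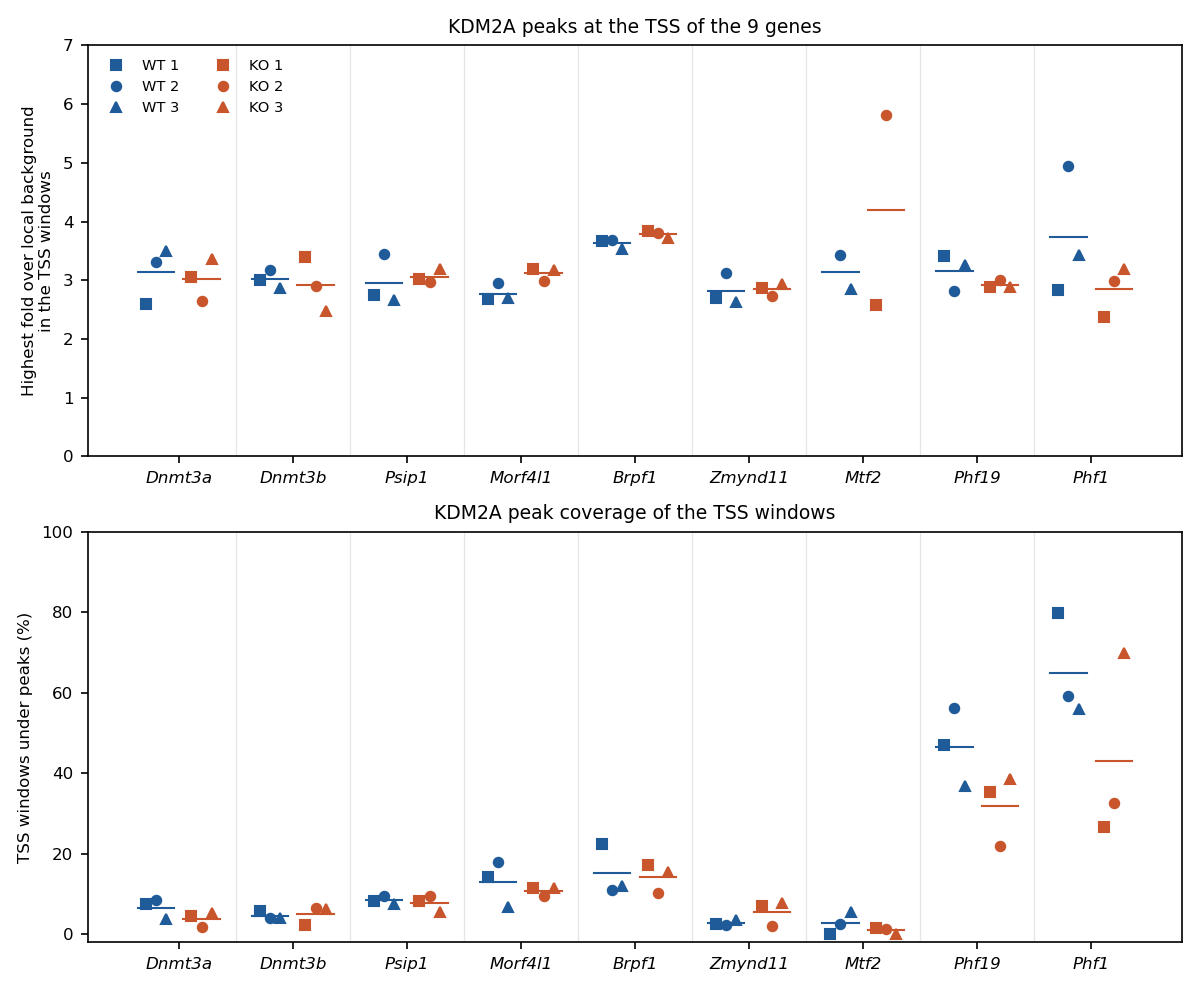
KDM2A at the 9 genes by library. The upper panel gives the highest peak fold over local background in the TSS windows and the lower panel the percent of the windows under peaks, with WT in blue, KO in orange, squares for replicate 1 (male), circles and triangles for replicates 2 and 3 (female), bars for group means, and no point in the upper panel where a library had no peak. Folds lay between 2.38 and 3.84 except for 1 library each of Mtf2 and Phf1, and Phf19 and Phf1 had the widest coverage.

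KDM2A peaks filled more of the TSS windows at Phf1 and Phf19 than at the other 7 readers, and least at Mtf2. Phf1 was covered by 79.7%, 59.3% and 56.0% in WT and by 26.8%, 32.7% and 69.9% in KO, and Phf19 by 46.9%, 56.1% and 36.8% in WT and by 35.3%, 22.0% and 38.7% in KO. Their WT means stood above those of 98.3% and 95.9% of protein-coding genes. Mtf2 had 0%, 2.58% and 5.61% in WT and 1.58%, 1.3% and 0% in KO. Brpf1 (WT 15.1% ± 6.33, KO 14.2% ± 3.65, SD over 3 libraries) and Morf4l1 (13.0% ± 5.68 and 10.8% ± 1.16) came next, and the 4 remaining genes had means under 10% in either genotype. Dnmt3a and Zmynd11 have 7 and 6 separate windows, of which only the one at the 5′ end held a KDM2A peak in all 6 lists, and windows without a peak lower this percent. In the window at the 5′ end alone, Dnmt3a was covered by 33.2%, 28.8% and 22.9% in WT and by 34.0%, 13.2% and 33.4% in KO.

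Of the 9 readers 6 passed the filter of a mean coverage of at least 5% for this test, 0 of them were called and 0 had genotypes that did not overlap. Over the 8372 genes tested 0 were called (0%, with 846 at an unadjusted p under 0.05), and 1.28% had every KO library above and 15.4% every KO library below WT. The median difference was −2.47 percentage points over the 6 readers and −4.53 over all genes tested. This direction depended on scaling. After division by the percent of the genome that the peaks of each list covered, the split of all genes tested moved from 22.4% higher and 77.6% lower in KO to 64.3% higher and 35.7% lower, and 5 of the 6 readers turned from lower to higher. Zmynd11, under the filter, had 2.42, 3.03 and 4.10 times the genome share in WT and 14.2, 5.00 and 10.8 times in KO, and on that scale 12.6% of the genes tested had every KO library above WT, whereas its coverage before division overlapped between genotypes (2.68%, 2.33% and 3.59% in WT, 7.0%, 2.17% and 7.69% in KO).

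Over whole gene bodies, KDM2A coverage was tested for Phf19, Phf1 and Brpf1, the 3 readers that passed the filter. Phf19 had 25.6%, 21.7% and 17.7% in WT and 12.4%, 9.53% and 12.2% in KO. The 3 KO libraries were the 3 lowest, with a difference of −10.3 ± 4.04 percentage points (SE, limma adjusted p = 0.361), but relative to the genome share of each list the values overlapped, at 23.1, 28.2 and 20.2 times in WT and 25.3, 22.0 and 17.0 times in KO. Every KO library was below WT in 21.7% and above it in 0.722% of the 4430 genes tested, of which 0 were called (0%, with 594 at an unadjusted p under 0.05). The split of these genes was 17.2% higher and 82.8% lower in KO, and 51.5% and 48.5% relative to the genome share. Phf1 had 100%, 47.6% and 80.8% in WT and 30.8%, 29.7% and 100% in KO, which overlapped (−22.6 ± 23.5 percentage points, SE, limma adjusted p = 0.612), and Brpf1 had 7.98%, 4.49% and 3.20% in WT and 8.12%, 3.01% and 5.48% in KO (limma adjusted p = 0.958).

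For H3K36me2, Dnmt3a and Zmynd11 had a gene-body peak in all 6 lists, 2 of the 9 readers, against 14.9% of all protein-coding genes. The merged H3K36me2 peaks at the 9 genes gave 62 intervals, of which 0 were present in all 6 lists, 6 were present in 5 and 31 in a single list. Psip1 had no H3K36me2 peak over its 30.8 kb body in any list, which was true of 9177 of the 21938 protein-coding genes. In its TSS windows it had 1 peak, in KO replicate 1, upstream of the gene.

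Among the readers tested, H3K36me2 coverage of the Dnmt3a body gave the lowest unadjusted p. Peaks covered 14.8%, 17.5% and 9.58% of its body in WT and 5.08%, 0.397% and 1.36% in KO, so that the genotypes did not overlap. The WT mean was 14.0% ± 4.01 and the KO mean 2.28% ± 2.47 (SD over 3 libraries), a difference of −11.7 ± 3.63 percentage points (SE) with an unadjusted p of 0.0127 and an adjusted p of 0.152 in limma. Under peaks of all 3 lists of a genotype lay 3413 bp of the body in WT and 0 bp in KO. The KO number could not exceed the 430 bp of the single body peak in KO replicate 2, whose list covered only 1.59% of the genome. The same count was not made over other genes at large. Relative to the genome share of each list, Dnmt3a had 3.56, 3.28 and 1.82 times in WT and 1.40, 0.25 and 0.943 times in KO, and the genotypes still did not overlap, as in 11.9% of all genes tested, which had every KO library below WT on that scale. Among the merged H3K36me2 intervals of the gene, 4 that were centred in introns, at chr12:3808508-3811871, chr12:3818329-3825576, chr12:3832008-3836630 and chr12:3855648-3862216, had a peak in all 3 WT lists and in 1, 1, 2 and 1 KO lists. These 4 were picked for a peak in all 3 WT lists, so their KO counts could not be higher. Other intervals had no WT peak. They were chr12:3829305-3830198, with 2 KO lists, and chr12:3827160-3827589, chr12:3839760-3840097 and chr12:3887762-3888022, with 1 each. In the TSS windows peaks filled 12.2%, 11.97% and 9.17% in WT and 3.51%, 0% and 1.60% in KO, a difference of −9.41 ± 4.87 percentage points (SE, limma adjusted p = 0.242). The height of the peaks that were called did not differ beyond the spread, with body folds of 3.06, 2.76 and 2.68 in WT and 3.22, 2.52 and 2.7 in KO.

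**Figure D3:**
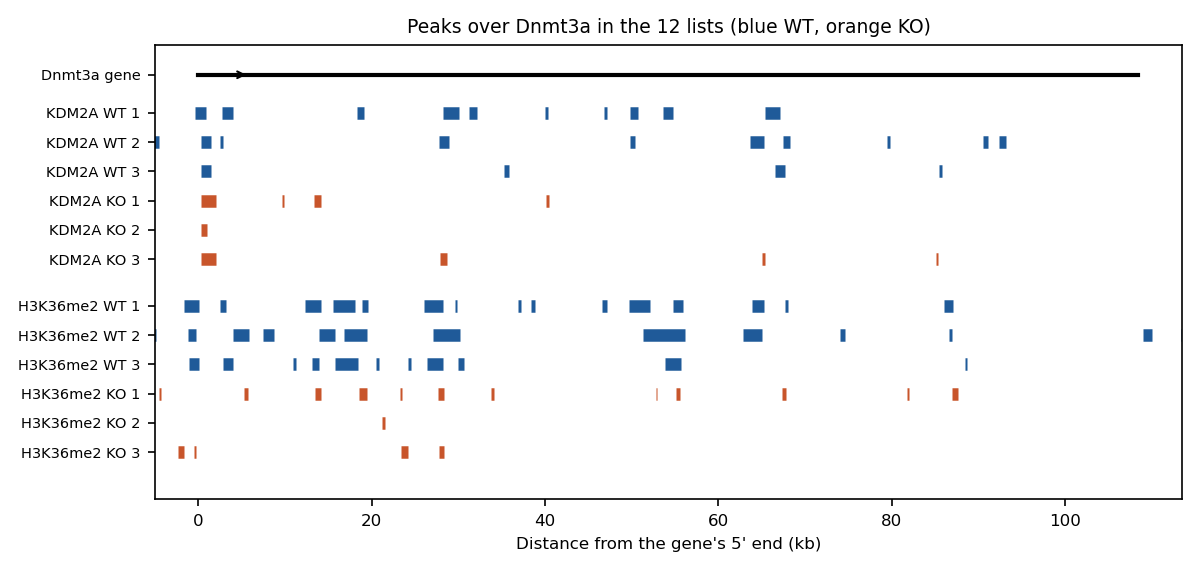
Peaks over Dnmt3a in each of the 12 lists, by distance in kb from the 5′ end of the gene, with the gene as a black line and an arrow for the direction of transcription. KDM2A peaks share a position near 0 kb in all 6 lists, and 15, 9 and 11 H3K36me2 peaks overlap the gene in WT replicates 1 to 3, against 11, 1 and 2 in KO replicates 1 to 3.

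Dnmt3b was covered by H3K36me2 to 3.66%, 10.0% and 1.65% in WT and to 4.98%, 0% and 0% in KO. Here KO replicate 1 lay among the WT libraries and the genotypes overlapped. Zmynd11 had 6.72%, 7.95% and 8.59% in WT and 2.58%, 6.0% and 3.73% in KO. These did not overlap either, with a difference of −3.65 ± 2.65 percentage points (SE, limma adjusted p = 0.29), but relative to the genome share of each list the genotypes overlapped and the difference of the means changed sign (1.61, 1.49 and 1.64 times in WT, 0.711, 3.78 and 2.58 times in KO). Its tallest body peaks had folds of 3.24, 3.48 and 2.86 in WT and 2.89, 2.83 and 2.82 in KO, and KO replicate 1 lay within the WT range. Morf4l1, Brpf1 and Mtf2 had body coverage between 0% and 4.35% in every library.

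Phf19 had a body coverage of 14.7%, 18.6% and 18.3% in WT and of 17.1%, 0% and 4.69% in KO, and Phf1 of 5.37%, 27.4% and 19.8% in WT and of 0%, 13.3% and 0% in KO. The genotypes overlapped for both in the gene body. In the TSS windows Phf19 had 30.2%, 34.0% and 57.5% in WT and 32.9%, 0% and 14.5% in KO, with KO replicate 1 inside the WT range. Phf1 had 23.0%, 37.5% and 21.9% in WT and 0%, 14.6% and 0% in KO, which did not overlap and differed by −22.6 ± 9.05 percentage points (SE, limma adjusted p = 0.211). Divided by the genome share, KO replicate 2 of Phf1 was the highest of the 6 libraries at 9.20 times. Mtf2 had 12.3%, 5.49% and 5.92% in WT and 4.73%, 0% and 4.03% in KO, with a limma adjusted p of 0.451, and relative to the genome share its genotypes overlapped (2.94, 1.03 and 1.13 times in WT, 1.3, 0 and 2.79 times in KO).

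**Figure D4:**
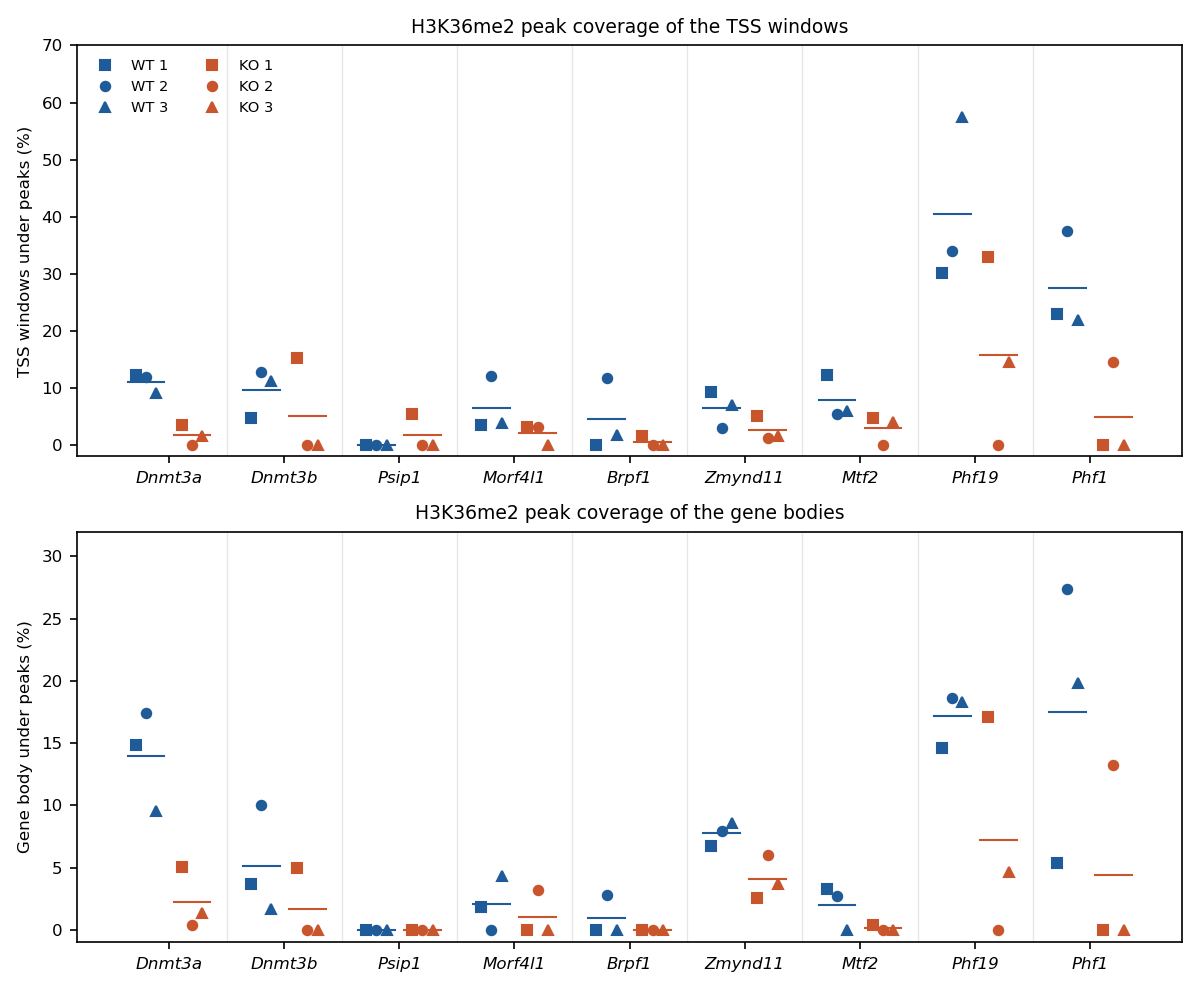
H3K36me2 peak coverage at the 9 genes by library, as percent of the TSS windows in the upper panel and of the gene body in the lower panel, with WT in blue, KO in orange, squares for replicate 1 (male), circles and triangles for replicates 2 and 3 (female) and bars for group means. Every KO point of Dnmt3a lies under every WT point in both panels, and at Phf19 KO replicate 1 lies among the WT points while KO replicates 2 and 3 are lower.

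Over all genes the H3K36me2 lists moved the same way as these members. In the gene body 4 readers passed the filter, 2 of them (Dnmt3a and Zmynd11) had every KO library below WT and 0 above, against 39.6% below and 0.0936% above of the 5342 genes tested. In the TSS windows 5 readers passed, 3 of them (Dnmt3a, Mtf2 and Phf1) had every KO library below WT and 0 above, against 29.6% below and 0.253% above of 7107 genes. For the body fold, 2 readers passed and neither had genotypes that did not overlap, against 6.13% below and 5.73% above of 3261 genes. No reader and no other gene was called at an adjusted p of 0.05 in these 3 limma tests (0% in each, with 1677, 1587 and 183 genes at an unadjusted p under that value). The median differences were −10.8 percentage points for the 4 readers and −10.6 for all genes in the body, and −9.41 for the 5 readers and −11.7 for all genes in the TSS windows, so the readers' medians were near those of genes at large. Scaled to the genome share of each list, the split of all genes moved from 4.12% higher and 95.9% lower in KO to 29.7% and 70.3% for the body, and from 7.65% and 92.3% to 32.7% and 67.3% for the windows. For the fold the split was 52.1% higher and 47.9% lower, and 65.8% and 34.2% without centring.

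One library decided whether a reader was called. Without KO replicate 1, the male KO library, the gene-body test called Phf19 (−14.9 percentage points, limma adjusted p = 0.0405) and Dnmt3a (−13.1, limma adjusted p = 0.0470) as lower in KO, 2 of 4 readers tested, when 27.6% of all genes tested were called lower. With female libraries only it called Phf19 (−16.1 percentage points, limma adjusted p = 0.0301), 1 of 4 readers tested, against 47% of all genes called lower. Another alternative, chosen after seeing the data, left out KO replicates 2 and 3, and the lone KO library is assumed there to vary like WT. Without KO replicates 2 and 3 the difference was −8.87 for Dnmt3a and −0.14 for Phf19. KO replicate 1 alone lay below all WT libraries at Dnmt3a, Zmynd11 (−5.18) and Phf1 (−17.5). The same held for 2561 of the 6389 genes tested, so it was common among genes at large. In the TSS windows the differences without these libraries were −7.61 for Dnmt3a, −3.16 for Mtf2, −7.62 for Phf19, −27.5 for Phf1 and 5.54 for Dnmt3b, with limma adjusted p from 0.884 to 0.928. On simulated data the test of H3K36me2 in the TSS windows recovered none of the changes put in, of 40 or 20 percentage points. The other coverage tests recovered from 41.5% to 52% of the changes of 40 points. Of those of 20 points, the test of KDM2A in the gene body recovered 8.5% and the remaining coverage tests 0%. A p above the threshold therefore does not show equal coverage.

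The partners of the readers were described from lists of related genes. For KDM2A in the TSS windows, a peak was present in all 6 lists in 9 of 15 other PWWP-domain genes, 4 of 6 DNA methylation genes, 6 of 8 Polycomb repressive complex genes, 8 of 11 acetyltransferase genes and 5 of 9 other partners. For H3K36me2 in the gene body the same was true of 3 of 15, 3 of 6, 2 of 8, 1 of 11 and 2 of 9 genes. No listed gene was called in any of the 6 tests. The filter for H3K36me2 body coverage was passed by 3 of 15, 2 of 6, 1 of 8, 2 of 11 and 3 of 9 genes. The decreases and increases below rank only genes that passed the filter of their test, and Jarid2 was the only Polycomb gene to pass that filter. The largest decreases in H3K36me2 body coverage within each list were those of Hdgf, a PWWP-domain growth factor (from 23.7% to 3.53%, −20.1 ± 5.67 percentage points), of Dnmt3l, a cofactor of the de novo methyltransferases (46.2% to 19.4%, −26.8 ± 10.6), of Jarid2, a Polycomb cofactor (22.2% to 7.92%, −14.3 ± 5.16), of the acetyltransferase Kat6b, a catalytic partner of BRPF1 (11.5% to 3.60%, −7.88 ± 3.38), and of Men1, a partner of PSIP1 (13.2% to 2.27%, −10.9 ± 8.40), with SE after each difference and limma adjusted p from 0.151 to 0.305. No tested gene of these lists had a higher mean in KO in that measure, in which 95.9% of all genes tested were lower. For KDM2A coverage of the TSS windows the largest decreases were those of Mum1 (−18.6 ± 5.90), Dnmt1 (−11.9 ± 7.26), Rbbp4 (−21.0 ± 9.04), Kat5 (−18.1 ± 11.6) and Kmt2a (−8.02 ± 6.09), and the largest increases those of Pwwp2b (2.26 ± 6.18), Tet3 (4.04 ± 7.66), Suz12 (3.17 ± 4.32), Ing5 (2.86 ± 7.95) and Morf4l2 (5.74 ± 4.52), in percentage points with SE, and the limma adjusted p ranged from 0.429 to 0.91.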

How the data were processed

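Broad peak lists of 12 ChIP-seq libraries were scored, while data of the 6 inputs were not used here. Per the labels and the study's methods, the authors used BWA for alignment (GRCm38) and MACS2 for peak calling, with 1 deposited list per library. The deposited fold is a ratio over the local control background and is not normalized between libraries. The deposited −log10 p-value and −log10 q-value were used only for an alternative threshold. Read counts were not used here, so depth is unknown. All 590705 peaks lay inside GRCm38 chromosomes.

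Members and gene lists were chosen with earlier results of these data known, and 1 marker list is not reported here. The named genes were the 9 members and, from the other lists, called genes or, where none was called, the largest increase and decrease. TSS and genes came from GENCODE M21, and peaks were scored within 2 kb of any TSS and over the gene body with an overlap of at least 1 bp. Coverage was the percent of bases under peaks. Differences between genotypes were tested across protein-coding genes with limma 3.58.1 in R 4.3.3, on log2 fold centred on the median of each library (genes with a peak in all 6 lists) or on coverage (mean of at least 5%), with Benjamini-Hochberg adjustment at 0.05. An exact permutation test of 3 against 3 libraries cannot go below 0.1 and was not used. The limma code was tested on simulated data. Overlaps and sequence counts used Python 3.11.15 and pandas 2.3.3.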

Additional observations from a re-analysis of the deposited data

Results flagged for a closer look

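At 9 of 46 member values, from 4 members, the male pair of libraries (replicate 1) moved one way between genotypes and every female KO library lay on the other side of every female WT library. In coverage this held for 2 of 9 members for KDM2A in the TSS windows, 2 of 9 for KDM2A in the gene body, 3 of 9 for H3K36me2 in the windows and 2 of 9 for H3K36me2 in the body, against 5.66%, 5.73%, 9.48% and 12.6% of all protein-coding genes, those without a peak included. In fold it held for 0 of 8 and 0 of 2 members, against 18.8% and 16.5% of genes. This difference between sexes was not tested, and with 1 male library per group it cannot be told apart from a difference between single libraries. In H3K36me2, KO replicate 1 was the KO list that covered most of the genome. For TSS windows in H3K36me2 the male difference, KO minus WT, was 10.5 percentage points at Dnmt3b, 2.76 at Phf19 and 1.51 at Brpf1, where the female means differed by −12.1, −38.5 and −6.74. For gene bodies in H3K36me2 it was 1.33 at Dnmt3b and 2.42 at Phf19, against −5.83 and −16.1 in females. For KDM2A, Dnmt3b differed by −3.49 in the windows and by −1.52 in the body in the male pair, where the female means differed by 2.51 and 0.759. Mtf2 differed by 1.58 in the windows and by 0.732 in the body in the male pair, where the female means differed by −3.44 and −0.955.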

How the results depend on the processing

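Of 408 recomputed differences at members, 366 kept their direction and their side of the threshold, 3 passed it and 39 changed sign. The number of genes called stayed at 0 under the alternatives run, except in 3 of the 6 tests. For KDM2A gene-body coverage it was 14 over all annotated genes and 0 to 8 when 1 library was left out, the 8 without KO replicate 1 and 4 without KO replicate 2 (Adm, Tap1, Psmb8 and Ppp1ca, named after their values were seen). For H3K36me2 gene-body coverage it was 2357 with female libraries only, 50 over all annotated genes and 0 to 1455 with 1 library left out, the 1455 without KO replicate 1. The replicate numbers did not pair the samples (correlation of the deviations of same-numbered libraries from −0.051 to 0.078), and the replicate block called 1 gene, Cdc14a, for the H3K36me2 gene-body fold and 0 genes in the other 5 tests.

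Direction depended on scaling for KDM2A coverage of the TSS windows. Divided by the genome share, the differences of Psip1, Morf4l1, Brpf1, Phf19 and Phf1 were 5.95, 5.75, 10.6, 6.49 and 4.96 times, and that of Phf1 in the body 8.90. As percentile ranks, those of Psip1, Morf4l1, Brpf1 and Dnmt3a were 11.6, 9.53, 13.6 and 1.41 points. With a −log10 q of at least 2, Psip1 was at 1.78 and Morf4l1 at 1.68, and with female libraries only Brpf1 was at 1.3 in the windows and Phf1 at 0.649 in the body. With 1 library left out the window values ranged from −1.59 to 0.421 for Psip1, from −5.28 to 0.309 for Morf4l1 and from −2.95 to 2.76 for Brpf1, whose body values ranged from −0.691 to 1.58. For the KDM2A fold (log2), Dnmt3a and Dnmt3b were at −0.051 and −0.055 without centring, Dnmt3a at −0.075 points as a percentile rank, and Dnmt3a, Dnmt3b and Phf19 at −0.10, −0.079 and 0.052 with female libraries only. Leaving out 1 library gave −0.095 to 0.10, −0.10 to 0.13 and −0.16 to 0.037. For H3K36me2, Zmynd11 in the body was at 0.776 divided by the genome share and 30.8 as a percentile rank, and Dnmt3a, Dnmt3b and Mtf2 in the windows were at 4.15, 10.8 and 16.1 as percentile ranks. Without KO replicates 2 and 3, the body fold of Dnmt3a was at 0.060 and the window coverage of Dnmt3b at 5.54. The cause of these changes was not tested. An overlap of at least 200 bp changed the lists with a peak at 1 of 36 gene regions by more than 1.5 times, Brpf1 in H3K36me2. Depth is unknown, so a missing peak is not an absent mark.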
